A study of Mus musculus with 24 samples.

Results

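The 10 genes described here are widely used readouts of extracellular signal-regulated kinase (ERK) signaling. They comprise the dual-specificity phosphatases Dusp4 and Dusp6, the Sprouty genes Spry1, Spry2 and Spry4, the Sprouty-related gene Spred1, the Ets factors Etv4 and Etv5, and the immediate early genes Egr1 and Fos. They were taken by name, with no threshold on their values but with earlier results of these data known, as 10 of the 37315 genes of the normalized count table, and all 10 were detected in all 24 libraries with at least 62 reads in a library. The table was made from RNA-seq of 12 populations, with 2 libraries each, of the PaX mouse reprogramming system. Every population comes from 1 female hybrid 129S1/SvImJ, CAST/EiJ embryonic stem cell (ESC) line that carries an X-GFP reporter on the X chromosome that is inactivated, a truncation of Tsix, a Nanog promoter-RFP reporter and a doxycycline-inducible cassette of c-Myc, Klf4, Oct4 and Sox2.

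ESCs were grown in serum and LIF, and neural precursor cells (NPCs) in a neural medium with the ERK-activating factors EGF and bFGF. Reprogramming cells were grown on irradiated male mouse fibroblasts in serum, LIF, ascorbic acid and doxycycline, either without further treatment (control) or with 10 ng/ml interferon γ (IFNγ) from day 0 to 5. At day 2, cells negative for the dye put on the feeders were sorted. At day 5, cells positive for the surface marker SSEA1 were sorted, and at day 7 such cells were sorted by the reporter into populations with no, medium and high X-GFP (X-GFP–negative, –medium and –high). The day 7 cells had thus been without IFNγ since day 5. Whether ESC and NPC libraries were sorted in the same way is not stated for RNA-seq, so that handling and population cannot be told apart where these are compared with reprogramming cells. Day 2 cells were not sorted for SSEA1, so that time and selection of SSEA1-positive cells cannot be told apart between day 2 and day 5. In the study's methods, reprogramming cells were seeded more densely for analysis at day 5 than at day 7. Only day 7 cells were sorted by X-GFP, so that time, density and this sort cannot be told apart between these days. In describing a pluripotency score from these data, the study's methods call the 2 replicates independent. Neither the methods nor the labels say whether the 2 libraries of a population come from separate reprogramming rounds. The p values therefore measure the spread between these libraries.

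ERK is the last kinase of the Ras, Raf and MEK cascade below receptors for fibroblast and epidermal growth factors. Active ERK induces immediate early genes within minutes, and it induces its own inhibitors somewhat later, so that the transcripts of phosphatases, Sprouty and Spred proteins are read as a record of pathway activity. In mouse ESCs the pathway drives exit from the naive state, and its inhibition supports self-renewal.

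Values are read counts divided by a size factor for each library (normalized counts). Libraries held 24746109 to 37056508 reads on genes. Embryonic stem cell markers summed to 119599 and 121129.8 in the ESC libraries and 81.7 and 115 in the NPC libraries, and the 7 neural markers to 797 and 866 against 44694 and 47880.4. The embryonic stem cell markers include Pou5f1 (Oct4), which the doxycycline-induced cassette also carries. The part of the cassette in their sums in reprogramming cells was not tested. The 8 fibroblast markers summed to 28398 and 40665 in NPCs, above their sum in any day 5 or day 7 library, so that these genes were high in the NPC libraries beside the neural ones. The 5 genes chosen as a check of the IFNγ response summed to 4705 and 4872 in day 2 control cells and 47543 and 49036 with IFNγ. At day 7, after withdrawal, their sum was still above control. It was 2738 and 2750 in control against 6646 and 7148 in treated X-GFP–negative cells. Medium cells had 1646 and 1690 against 2554 and 2715, and high cells 1443 and 1527 against 1856 and 1881. Y-linked genes, which the female cells lack, were at most 12.5 in sum outside day 2, but reached 218 and 253 on day 2 without IFNγ and 125 and 223 with it (the feeders were male). The part of feeder RNA in day 2 values was not tested.

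RefSeq promoters were at hand for 6 of the 10 genes (Dusp6, Spry1, Spry2, Spred1, Etv5 and Fos). The 250 bases before the start site are shown for Dusp6 and Spry2, the 2 feedback genes called higher with IFNγ in all 3 day 7 populations, and for the immediate early gene Fos, called lower in all 3. Sequences are from GRCm38.p6, 5′ to 3′ on the strand of the gene, and capitals mark matches, on either strand, to AGGAAG (the motif of the Etv4 and Etv5 group), CCGGAA (Ets factors), TGACGT (the core of the cyclic AMP response element), TGANTCA (AP-1), TTCNNNGAA (the gamma-activated site bound by STAT factors), CCAAT (NF-Y) or a CArG box (serum response factor).
Dusp6 (chr10:99262981-99263230, plus strand): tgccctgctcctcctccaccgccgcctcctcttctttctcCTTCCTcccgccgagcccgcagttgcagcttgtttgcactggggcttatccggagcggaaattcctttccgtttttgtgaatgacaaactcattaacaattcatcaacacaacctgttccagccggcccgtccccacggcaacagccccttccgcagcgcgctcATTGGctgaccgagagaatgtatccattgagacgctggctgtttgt
Spry2 (chr14:105896820-105897069, minus strand): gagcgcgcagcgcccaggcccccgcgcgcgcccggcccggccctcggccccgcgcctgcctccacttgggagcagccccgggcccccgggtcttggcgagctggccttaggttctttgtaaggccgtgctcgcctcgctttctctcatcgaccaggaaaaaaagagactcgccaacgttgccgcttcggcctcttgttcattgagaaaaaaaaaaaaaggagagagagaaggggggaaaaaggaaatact
Fos (chr12:85473640-85473889, plus strand): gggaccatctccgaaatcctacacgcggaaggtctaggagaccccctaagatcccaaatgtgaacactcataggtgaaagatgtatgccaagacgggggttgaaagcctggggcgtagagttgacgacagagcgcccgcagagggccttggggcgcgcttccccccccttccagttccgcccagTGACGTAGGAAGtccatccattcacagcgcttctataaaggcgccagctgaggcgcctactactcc
The Fos promoter held TGACGT directly followed, without overlap, by AGGAAG, from 66 to 55 bases before the start site. Of 32851 mouse promoter windows of the same length, 6.47% held TGACGT and 29.5% held AGGAAG. The Dusp6 window held AGGAAG and CCAAT, both on the opposite strand, the latter in 33.8% of all windows. None of the 7 motifs matched in the Spry2 window. The gamma-activated site, present in 7.02% of windows, did not match in any of the 3 sequences shown. These are matches of letters only.

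Across the 12 populations the 10 genes took up distinct patterns. Normalized counts per kilobase of exon, on which genes can be compared, placed Dusp6 (1941) and Dusp4 (1196) highest in NPCs. In ESCs, Etv5 was highest with 1520.0 per kilobase. Spred1 and Spry2 came next, followed by Etv4 with 193, and Dusp6 had 82.7. Fos was highest in day 7 X-GFP–negative control cells with 4913 per kilobase, against 885 for Egr1. With the 12 populations ordered by level, 2 of the 11 neighbouring pairs overlapped in their libraries for Dusp6 and 3 for Etv5, but 7 for Etv4, so that its order is the least settled. Over the 24 libraries, the values of Dusp4 and Dusp6 correlated with Pearson r = 0.90 and those of Egr1 and Fos with r = 0.94, whereas Spred1 and Etv5 had r = -0.56, on log2 values of libraries that share lines, treatments and sorting.

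**Figure D1:**
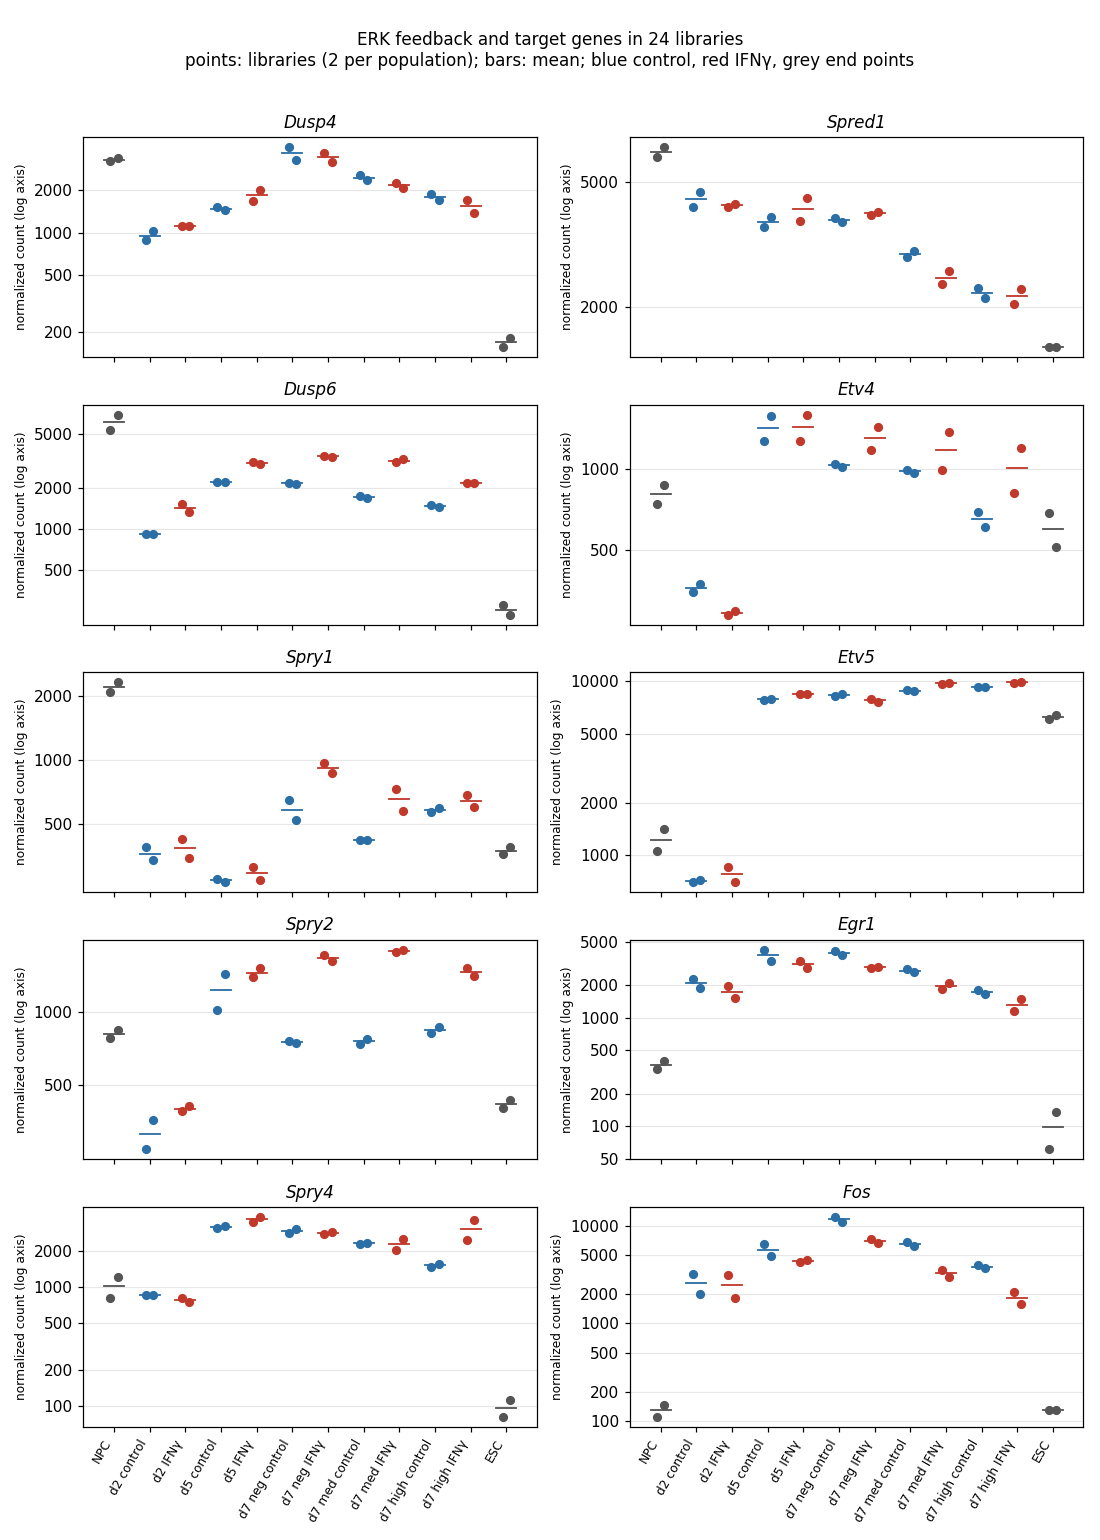
Normalized counts of the 10 genes on log axes in 12 populations, ordered from NPC over day 2, day 5 and day 7 (X-GFP–negative, –medium and –high) to ESC. Points are libraries, bars are means, control is blue, IFNγ is red and end points are grey. Dusp6 of IFNγ libraries lies above control at all 3 days and in all 3 day 7 populations, and Fos lies below control at day 7.

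The first set of comparisons followed the control cells from NPC over the reprogramming populations to ESC. Tests were made with limma on log2(normalized count + 1) for all genes with a mean above 10 in the libraries compared, and a gene was called at a Benjamini-Hochberg adjusted p under 0.1. From NPC to day 2, 7 of the 10 genes fell and 2 rose, where 37.6% and 31.6% of all genes tested did. From day 2 to day 5, 8 rose and 2 fell, against 34.9% and 35.6% of all genes. This step also takes in the sort for SSEA1 and the feeder RNA of day 2, which cannot be told apart from time. Between day 5 and day 7 X-GFP–negative cells, 3 rose and 2 fell, against 34.2% and 29.5%. That step also takes in the sort by X-GFP and the lower seeding density for day 7, which cannot be told apart from time. Along the X-GFP populations, 7 fell from negative to medium (background 25.2%), where no gene (background 21.9%) was called higher by limma, edgeR or DESeq2 and 0 had an unadjusted p under 0.05. From medium to high 7 fell and 2 rose (background 32.7% and 31.4%). Rescaling every library to the same total turned the share of higher calls from 46.5% to 60.2% between negative and medium cells and shifted the median of all genes by -0.12 from day 2 to day 5 and by -0.13 between NPC and ESC. These steps share libraries. The median absolute log2 difference of the 10 genes was 1.58 against 0.57 over all genes from NPC to day 2 and 1.21 against 0.54 from day 2 to day 5.

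The phosphatases remove phosphate from ERK, Dusp4 in the nucleus and Dusp6 in the cytoplasm. Dusp6 was at 5284 and 6874 in the NPC libraries, 924 and 916 on day 2 and 2208 and 2227 on day 5, while ESCs held 280.1 and 238. NPCs stood above all other populations and ESCs below all others, with no overlap. The fall from NPC to day 2 was 6.55-fold (log2 fold change -2.71 ± 0.13, adjusted p = 5.29e-05), and the rise to day 5 was 2.41-fold (log2 fold change 1.27 ± 0.073, adjusted p = 1.26e-05). Within day 7 control cells Dusp6 declined with X-GFP, from 2191 and 2135 in negative to 1749 and 1704 in medium and 1493 and 1459 in high cells, both steps being called. Dusp4 was at 3198 and 3355 in NPCs, 882 and 1029 at day 2 and 1515 and 1442 at day 5. It reached 4024 and 3272 in X-GFP–negative cells, a level that overlapped that of NPCs, after a 2.45-fold rise from day 5 (log2 fold change 1.30 ± 0.10, adjusted p = 6.51e-05). Dusp4 then fell over the medium (2542 and 2347) and high cells (1877 and 1705) to 155 and 181 in ESCs, 10.6-fold below X-GFP–high control cells (log2 fold change -3.41 ± 0.10, adjusted p = 7.1e-12).

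Sprouty proteins block the cascade between receptor and Raf, and Spred1 recruits neurofibromin to shut off Ras. Spry1 was high in NPCs (2086 and 2311) and stood at 388 and 338 at day 2 and 277 and 267 at day 5. After the 6.04-fold fall from NPC to day 2 (log2 fold change -2.60 ± 0.11, adjusted p = 4.29e-05) it did not return to the NPC level in any population. It rose to 645 and 520.4 in X-GFP–negative cells (log2 fold change 1.09 ± 0.13, adjusted p = 0.00035). Unlike Dusp4 and Dusp6, it was higher in X-GFP–high (571 and 595) than in medium cells (421 and 421; log2 fold change 0.47 ± 0.086, adjusted p = 0.000228). ESC libraries held 361 and 389, a range that overlapped those of day 2. Spry2 moved from 782 and 839 in NPCs to 272 and 359 at day 2 and 1012 and 1429 at day 5. Its day 5 rise was 3.84-fold (log2 fold change 1.94 ± 0.20, adjusted p = 0.000133), and the 2 day 5 libraries lay further apart than those of the other days. Spry2 was lower again in day 7 X-GFP–negative cells (755 and 746; log2 fold change -0.68 ± 0.15, adjusted p = 0.00582) and ended at 404 and 432 in ESCs.

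Spry4 differed from Spry1 and Spry2 in that its fall from NPC (813 and 1212) to day 2 (852 and 861) was not called (log2 fold change -0.21 ± 0.19, adjusted p = 0.355). Without NPC replicate 1 the log2 fold change was -0.50 (adjusted p = 0.00333), and without NPC replicate 2 it was 0.075 (adjusted p = 0.59), so that the direction depended on 1 library. At day 5 Spry4 reached 3132 and 3233, 3.71-fold above day 2 (log2 fold change 1.89 ± 0.071, adjusted p = 3.92e-06), and was at 2854 and 3055 in X-GFP–negative cells (log2 fold change -0.11 ± 0.070, adjusted p = 0.221). It then fell in medium (2298 and 2353) and further in high cells (1461 and 1570.2). ESCs had 81.6 and 113, 15.6-fold less than X-GFP–high control cells (log2 fold change -3.96 ± 0.14, adjusted p = 3.05e-11). Spred1 had the smallest range of the 10 genes. It fell from 6029.5 and 6479 in NPCs over 4189 and 4646 at day 2 and 3611 and 3889.8 at day 5 to 2301 and 2147 in X-GFP–high cells and 1493 and 1492 in ESCs. All steps of this decline but that from day 5 to X-GFP–negative cells (log2 fold change 0.018 ± 0.069, adjusted p = 0.837) were called, and that from day 2 to day 5 (log2 fold change -0.24 ± 0.077, adjusted p = 0.0299) was lost without day 2 replicate 2 or day 5 replicate 1.

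Etv4 and Etv5 are Ets factors whose transcription follows fibroblast growth factor signaling. Etv5 was the only 1 of the 10 genes called higher in ESCs than in NPCs, with 6043 and 6430.3 against 1056 and 1409 (log2 fold change 2.35 ± 0.14, adjusted p = 2.11e-05). Its lowest control level was at day 2 (703 and 718), and it was 11.1-fold higher at day 5 (7816 and 7927; log2 fold change 3.47 ± 0.065, adjusted p = 5.89e-07). From then on it stayed above the ESC libraries in every population, with 8243 and 8515 in X-GFP–negative, 8894 and 8782 in medium and 9263 and 9229.9 in high control cells. Etv4 also had its lowest control level at day 2 (350.3 and 373) and rose 3.89-fold to 1269 and 1565 at day 5 (log2 fold change 1.96 ± 0.12, adjusted p = 1.78e-05). It fell to 1043 and 1018 in X-GFP–negative cells and again to 691 and 608 in high cells, while the step from negative to medium (991 and 966) was not called (log2 fold change -0.074 ± 0.069, adjusted p = 0.424). High cells overlapped ESCs (686 and 512; log2 fold change -0.13 ± 0.12, adjusted p = 0.356). The lower Etv4 of ESCs than of NPCs (739 and 869; log2 fold change -0.43 ± 0.16, adjusted p = 0.0483) was no longer called without ESC replicate 2, NPC replicate 1 or NPC replicate 2, at -0.22 (adjusted p = 0.288), -0.55 (adjusted p = 0.131) and -0.32 (adjusted p = 0.294).

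Egr1 and Fos encode transcription factors induced at once, without new protein synthesis, when ERK is activated. Both were low at the 2 end points. Fos was at 109.9 and 147 in NPCs and 131 and 129 in ESCs, which did not differ beyond their spread (log2 fold change 0.034 ± 0.21, adjusted p = 0.885). Egr1 was at 337 and 401 in NPCs and 60.9 and 134 in ESCs. At day 2 Fos reached 3183 and 2007, 19.8-fold above NPCs (log2 fold change 4.30 ± 0.25, adjusted p = 8.34e-05), and Egr1 2292 and 1874, 5.62-fold above (log2 fold change 2.49 ± 0.14, adjusted p = 7.72e-05). These rises went in the opposite direction to the falls of Dusp6, Dusp4 and Spry1 over the same step. Fos then rose to 6422 and 4885 at day 5, reached 12231 and 10882 in X-GFP–negative cells, and declined to 6799.5 and 6131 in medium and 3953 and 3641 in high cells. Egr1 held 4269 and 3366 on day 5, which overlapped with the 4109.9 and 3828 of X-GFP–negative cells, and fell to 2806 and 2628 in medium and 1811 and 1663 in high cells. Of 12 other immediate early genes, 8 were called higher at day 2 than in NPCs and 0 lower (background 31.6% and 37.6%). Then 12 fell from X-GFP–negative to medium cells (background 25.2%), and 11 fell and 1 rose from medium to high cells (background 32.7% and 31.4%). The summed level of these 12 genes was 8510.0 and 9447 in NPCs, 50237 and 60749.7 in X-GFP–negative control cells and 6691 and 6835 in ESCs.

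ESCs are the reference for the end of reprogramming. Against X-GFP–high control cells, ESCs were lower for 9 of the 10 genes (background 37.9%), and against X-GFP–high IFNγ cells for 10 of the 10 (background 33.2%). No gene of the 10 was called higher in ESCs in either comparison (background 37.8% and 33.9%) by limma, edgeR or DESeq2, and 0 had an unadjusted p under 0.05 in that direction. Against NPCs, 8 of the 10 were lower in ESCs and 1 higher (background 43.4% and 42.2%), with Dusp6 at -4.54 ± 0.15, Dusp4 at -4.28 ± 0.10 and Spry4 at -3.35 ± 0.25 on the log2 scale. These comparisons share the ESC libraries. The differences from control cells ranged from 1.48-fold for Etv5 (log2 fold change -0.57 ± 0.051, adjusted p = 2.43e-07) to 29-fold for Fos (log2 fold change -4.86 ± 0.082, adjusted p = 1.19e-13) among the called genes, with 19-fold for Egr1.

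The second set of comparisons asked what IFNγ treatment did to these genes. At day 2, 1 of the 10 genes was called higher and 0 lower (background 5.03% and 3.45%), and at day 5 again 1 higher and 0 lower (background 1.65% and 0.535%). At an unadjusted p under 0.05, 1 gene was lower at day 2 and 1 at day 5, and DESeq2 called 0 and 1 genes lower and edgeR 0 and 0. For these rules the shares of all genes are not given. At day 7, 4 rose (background 31.1%) and 2 fell (background 30.8%) in X-GFP–negative cells. In medium cells 4 rose (background 33.3%) and 4 fell (background 29.6%), and in high cells 4 rose (background 18.1%) and 2 fell (background 20.4%). The background of calls in either direction was 61.9%, 62.9% and 38.5%, so that the share of called genes among the 10 was near that of all genes in X-GFP–negative cells. The median log2 fold change of the 10 genes lay at 0.0036, 0.05 and 0.12 and that of all genes at 0.02, 0.04 and 0.03. With libraries rescaled to the same total, the median of all genes in X-GFP–negative cells shifted by 0.16 and the share of higher calls went from 50.3% to 66.3%. The 6 genes called there kept their direction and call, and Spred1 was then also called higher, at 0.23 (adjusted p = 0.0104).

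**Figure D2:**
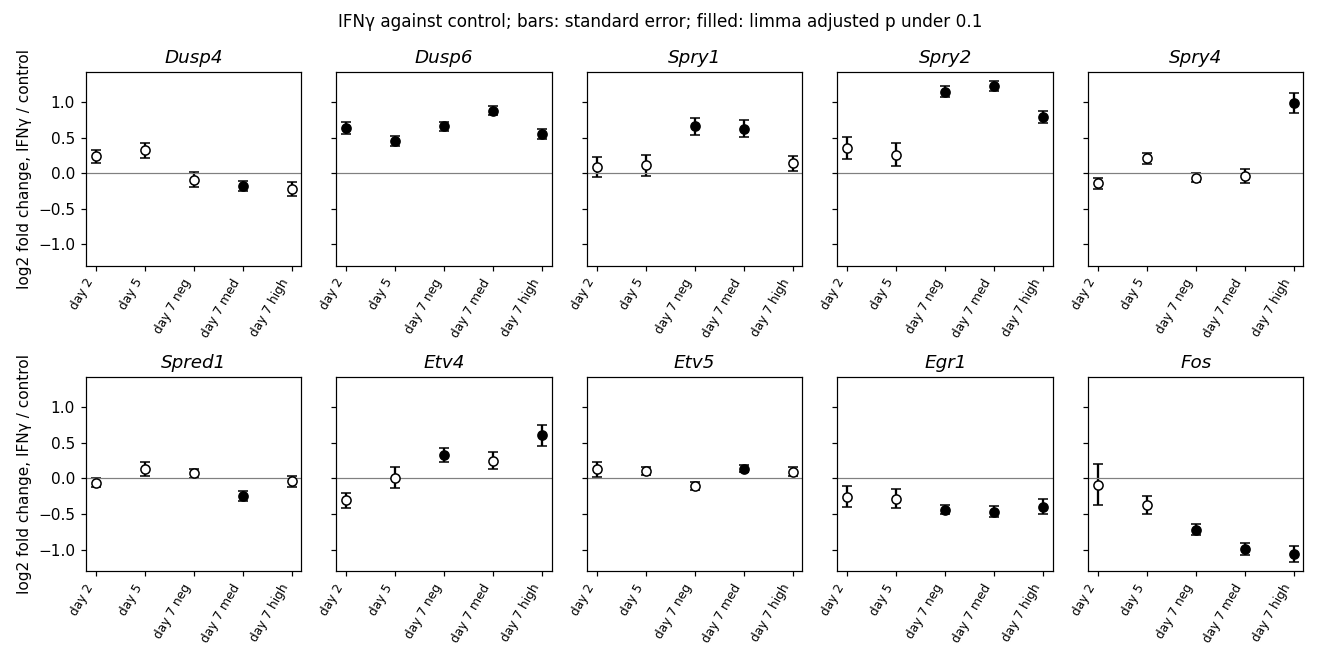
Log2 fold change of IFNγ against control for each of the 10 genes at day 2, day 5 and in the 3 day 7 populations, from 2 libraries a group. Bars are standard errors and filled points have a limma adjusted p under 0.1. Dusp6 is filled and above 0 in all 5 comparisons, Spry2 in the 3 of day 7, and Egr1 and Fos are filled and below 0 in the 3 of day 7.

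Dusp6 was called higher with IFNγ in all 5 comparisons. At day 2 the libraries held 924 and 916 in control and 1531 and 1327 with IFNγ (log2 fold change 0.63 ± 0.086, adjusted p = 0.0114). Fibroblast markers at day 2 summed to 40889.5 and 60643 in control against 24628 and 30051 in IFNγ libraries (4 of 8 called lower), neural markers to 13429 and 16913 against 17321 and 19004 (2 of 7 called higher) and embryonic stem cell markers to 9439 and 10154 against 7492 and 8127. Dusp6 was higher in NPCs than in day 2 cells, and the part of cell makeup in its day 2 change was not tested. At day 5 the libraries held 2208 and 2227 against 3080.2 and 3012 (log2 fold change 0.46 ± 0.071, adjusted p = 0.0462). The groups overlapped at neither day. Fibroblast markers at day 5 summed to 1673 and 2516 against 859.7 and 1396 with IFNγ, where limma called 0 of the 6 tested and 5 had an unadjusted p under 0.05. No share of all genes is given at that unadjusted p. After withdrawal of IFNγ, Dusp6 was at 2191 and 2135 in X-GFP–negative control cells and 3457 and 3368 in those that had been treated (log2 fold change 0.66 ± 0.063, adjusted p = 3.56e-05). Medium cells had 1749 and 1704 against 3103 and 3249.6 (log2 fold change 0.88 ± 0.062, adjusted p = 2.82e-06). In high cells the values were 1493 and 1459 against 2159 and 2166 (log2 fold change 0.55 ± 0.072, adjusted p = 0.000173). The increase was between 1.37-fold at day 5 and 1.84-fold in medium cells. The day 5 call was lost without control replicate 1, control replicate 2 or IFNγ replicate 2, at 0.45 (adjusted p = 0.175), 0.46 (adjusted p = 0.137) and 0.47 (adjusted p = 0.132). Dusp4, the other phosphatase, was not called higher at day 7. It was at 2542 and 2347 in medium control and 2238 and 2079.6 in medium IFNγ cells (log2 fold change -0.18 ± 0.070, adjusted p = 0.0506), a call that was lost without control replicate 1, at -0.12 (adjusted p = 0.371), or without IFNγ replicate 2, at -0.13 (adjusted p = 0.107). At day 2 and day 5 its log2 fold changes were 0.23 ± 0.091 (adjusted p = 0.213) and 0.32 ± 0.11 (adjusted p = 0.198).

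Spry2 rose in all 3 day 7 populations. X-GFP–negative cells held 755 and 746 in control and 1707 and 1613 with IFNγ, 2.21-fold more (log2 fold change 1.14 ± 0.076, adjusted p = 5.44e-06). Medium cells held 737 and 774 against 1749 and 1794, 2.34-fold more (log2 fold change 1.23 ± 0.072, adjusted p = 1.05e-06). High cells held 819.8 and 861 against 1503 and 1399.5, 1.73-fold more (log2 fold change 0.79 ± 0.083, adjusted p = 3.84e-05). All 6 IFNγ libraries of day 7 lay above all 6 control libraries. At day 5, Spry2 was at 1012 and 1429 in control and 1379 and 1506 in IFNγ cells, which overlapped (log2 fold change 0.26 ± 0.16, adjusted p = 0.419). At day 2 the values were 272 and 359 against 389.8 and 409.6 (log2 fold change 0.35 ± 0.15, adjusted p = 0.253).

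Spry1 rose with IFNγ in X-GFP–negative cells, from 645 and 520.4 to 968 and 863 (log2 fold change 0.66 ± 0.12, adjusted p = 0.00128), and in medium cells, from 421 and 421 to 731 and 578 (log2 fold change 0.63 ± 0.12, adjusted p = 0.00129). In high cells it was at 571 and 595 against 685 and 599.8 (log2 fold change 0.14 ± 0.10, adjusted p = 0.341). The high groups did not overlap, but their difference was not called. At day 2 (388 and 338 against 425 and 345) and day 5 (277 and 267 against 316 and 274) the groups of Spry1 were close, with adjusted p = 0.803 and 0.716.

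Spry4 was called in X-GFP–high cells alone, where control libraries held 1461 and 1570.2 and IFNγ libraries 2481 and 3638, 1.98-fold more (log2 fold change 0.99 ± 0.14, adjusted p = 0.000247). The 2 IFNγ libraries were far apart, and without replicate 2 the log2 fold change was 0.71 and still called. In X-GFP–negative cells (2854 and 3055 against 2758 and 2900.2) and medium cells (2298 and 2353 against 2029.8 and 2519.8) the log2 fold changes were -0.062 ± 0.067 (adjusted p = 0.461) and -0.040 ± 0.093 (adjusted p = 0.737). Spred1 was called lower in medium cells alone, with 2889.8 and 3014 in control and 2373 and 2600.3 with IFNγ (log2 fold change -0.25 ± 0.067, adjusted p = 0.0101). Its other 4 log2 fold changes lay between -0.060 and 0.13.

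Among the Ets factors, Etv4 was called higher in X-GFP–negative cells, with 1043 and 1018 in control and 1171 and 1425 with IFNγ (log2 fold change 0.33 ± 0.099, adjusted p = 0.0203), and in high cells, with 691 and 608 against 815 and 1194 (log2 fold change 0.60 ± 0.15, adjusted p = 0.00951). In each day 7 population IFNγ replicate 2 held more Etv4 than IFNγ replicate 1. Without it, the log2 fold change was 0.18 (adjusted p = 0.161) in negative and 0.33 (adjusted p = 0.0124) in high cells, so that the former call was lost. In medium cells the values 991 and 966 against 994 and 1364 gave log2 fold change 0.25 ± 0.13, adjusted p = 0.114. Etv5 was called in medium cells alone, higher by 1.1-fold (8894 and 8782 to 9655 and 9811; log2 fold change 0.14 ± 0.055, adjusted p = 0.0529). That call was lost without either control library, at 0.15 (adjusted p = 0.248) and 0.13 (adjusted p = 0.307), and with both count-based tools. In the other 4 comparisons its adjusted p was 0.144 or more.

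Fos fell with IFNγ in all 3 day 7 populations. Libraries held 12231 and 10882 in control, but 7373 and 6671 in treated, X-GFP–negative cells (log2 fold change -0.72 ± 0.075, adjusted p = 6.14e-05). Medium cells held 6799.5 and 6131 in control and 3530.0 and 2976 with IFNγ (log2 fold change -0.99 ± 0.085, adjusted p = 8.53e-06). In high cells the values were 3953 and 3641 against 2088 and 1572 (log2 fold change -1.07 ± 0.11, adjusted p = 3.46e-05). Treated cells thus had 1.64-, 1.99- and 2.09-fold less Fos, with no overlap of groups. Egr1 fell in the same populations. It went from 4109.9 and 3828 to 2887 and 2965 in negative cells (log2 fold change -0.44 ± 0.065, adjusted p = 0.000448), and from 2806 and 2628 to 1844 and 2093 in medium cells (log2 fold change -0.47 ± 0.076, adjusted p = 0.000539). In high cells Egr1 was at 1811 and 1663 in control and 1168 and 1489 with IFNγ (log2 fold change -0.40 ± 0.11, adjusted p = 0.0154). The 3 falls of Egr1 were no longer called when all 24 libraries shared 1 fit, with adjusted p from 0.111 to 0.237. Without X-GFP–high control replicate 1 the log2 fold change in high cells was -0.33 (adjusted p = 0.133), and without IFNγ replicate 1 it was -0.22 (adjusted p = 0.0327), against -0.57 without IFNγ replicate 2. At day 2, Fos was at 3183 and 2007 in control and 3109 and 1819.7 in IFNγ libraries, where replicate 1 was above replicate 2 in both groups (log2 fold change -0.088 ± 0.29, adjusted p = 0.902). At day 5, 6422 and 4885 stood against 4275 and 4397 (log2 fold change -0.37 ± 0.13, adjusted p = 0.205).

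Most other immediate early genes fell with Egr1 and Fos at day 7. Of 12 such genes (Fosb, Jun, Junb, Egr2, Egr3, Ier2, Atf3, Dusp1, Zfp36, Nr4a1, Btg2 and Klf6), 12 were called lower with IFNγ in X-GFP–negative cells, 12 in medium and 10 in high cells, where 30.8%, 29.6% and 20.4% of all genes were. Leaving out any 1 library gave at least 11, 11 and 10. The median log2 fold change of the 12 was -0.86, -0.93 and -0.94, against 0.02, 0.04 and 0.03 over all genes tested. Fosb, a partner of Jun in AP-1, fell most in medium (3285 and 3641 to 909 and 986; log2 fold change -1.87 ± 0.076, adjusted p = 2.88e-07) and high cells (1314 and 1565 to 321 and 372; log2 fold change -2.05 ± 0.11, adjusted p = 5.96e-07). Dusp1, a nuclear phosphatase of mitogen-activated kinases, fell most in negative cells (5797 and 7032 to 2424 and 2709; log2 fold change -1.32 ± 0.095, adjusted p = 8.06e-06). Ier2 and Egr3 were not called in high cells, with 0.0053 ± 0.088 and -0.32 ± 0.41. At day 2 and day 5, 0 of the 12 were called by limma, with 6 and 2 at an unadjusted p under 0.05 in either direction. DESeq2 called 0 of them lower at day 2 but 2 at day 5, and edgeR 0 at either day. The shares of all genes at that unadjusted p, or called by DESeq2 and edgeR, are not given. These counts are therefore not read against a background. The summed level of the 12 genes was 50237 and 60749.7 in negative control and 26685 and 29696 in negative IFNγ libraries, 29804 and 34172 against 15799 and 16122 in medium, and 18512 and 21655 against 10943 and 11766 in high cells.

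**Figure D3:**
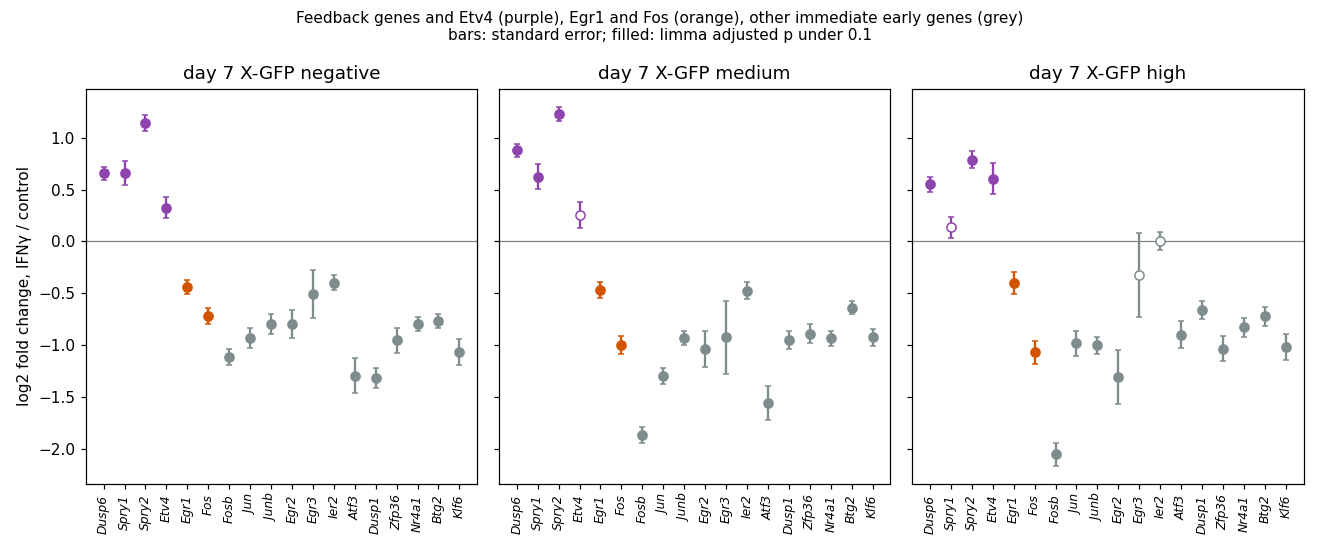
Log2 fold change of IFNγ against control at day 7 for Dusp6, Spry1, Spry2 and Etv4 (purple), Egr1 and Fos (orange) and 12 other immediate early genes (grey), 1 panel for each X-GFP population. Bars are standard errors and filled points have a limma adjusted p under 0.1. In X-GFP–negative and medium cells all grey and orange points are filled and below 0, while Dusp6, Spry1 and Spry2 are filled and above 0. The panels leave out Dusp4, Spry4, Spred1 and Etv5, so that they do not show all feedback genes. Of these, Dusp4 and Spred1 were called lower in medium cells, Etv5 higher in medium cells and Spry4 higher in high cells.

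Other measures moved with treatment at day 7. Embryonic stem cell markers summed to 55721 and 56550.2 in medium control and 75662 and 76199 in medium IFNγ cells, and to 78255 and 79723 against 92849 and 94367 in high cells. In X-GFP–negative cells they were at 39931 and 43357 against 45515 and 45532. Fibroblast markers, 8 genes, summed to 4316 and 4934 against 731 and 799.8 in negative, 4893 and 5505 against 413 and 539.5 in medium and 1947 and 2420.2 against 409 and 545 in high cells. In medium control cells nearly all of this sum was Dcn, with 4472 and 5019.6, against 166 and 242 in medium IFNγ libraries. Lum, in contrast, was at most 7.92 and Y-linked genes at most 12.5 in sum in any day 7 library. Col1a1 was at 133 and 151 in negative control and 123 and 133 in negative IFNγ cells. Neural markers were at 5111 and 5191 against 5753 and 5912 and primitive endoderm markers at 641 and 658 against 1339 and 1441 in negative cells. In medium cells, neural markers were at 3311 and 3587 against 2141 and 2426 and primitive endoderm markers at 570.0 and 591 against 751 and 813. In high cells they were at 2097 and 2131 against 1415 and 1501 and 449 and 469 against 376 and 418. The neural sum was thus higher with IFNγ in negative but lower in medium and high cells. At an unadjusted p under 0.05 (limma), 2, 3 and 3 of the neural markers differed in negative, medium and high cells, in either direction. For the fibroblast markers these counts were 1, 5 and 3. A sum can therefore rest on few genes. The share of all genes at that p is not given. In bulk libraries a smaller share of cells that express a gene and less RNA in each cell cannot be told apart. The part of cell makeup in the changes of the 10 genes was not tested.

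Whether the effect of IFNγ differed between populations was tested as an interaction. Between day 5 and day 2, 0 of the 10 genes differed by limma, edgeR or DESeq2, 1 had an unadjusted p under 0.05, and 0.676% of all genes were called by limma. The share of all genes at the unadjusted p is not given. Between X-GFP–high and medium cells, 1 effect was higher and 3 were lower (background 4.71% and 8.06%). That of Spry4 was higher by 1.03 ± 0.21 (log2; adjusted p = 0.0182). Those of Spry2 (-0.44 ± 0.10, adjusted p = 0.028), Dusp6 (-0.33 ± 0.083, adjusted p = 0.0402) and Spry1 (-0.49 ± 0.16, adjusted p = 0.0954) were lower in high cells. Between high and negative cells the effect on Spry4 was again higher (1.05 ± 0.19, adjusted p = 0.0049), and those on Spry1 (-0.52 ± 0.16, adjusted p = 0.0535) and Spry2 (-0.36 ± 0.11, adjusted p = 0.0417) were lower (background 9.43% and 13.3%). Between medium and negative cells, Etv5 (0.25 ± 0.070, adjusted p = 0.0535) was higher and Spred1 (-0.32 ± 0.085, adjusted p = 0.0441) lower (background 7.31% and 8.36%). The differences of Spry4 were called without any 1 library, with values from 0.75 to 1.30 and 0.77 to 1.33, whereas each of the others lost its call without at least 1 library. No interaction was called for Egr1 or Fos, with log2 values of at most 0.070 ± 0.15 for Egr1 and at lowest -0.35 ± 0.16 (adjusted p = 0.173) for Fos.

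The remaining parts of the pathway were described from lists of ligands and receptors, adaptors and Ras regulators, kinases with their nuclear targets, and further feedback inhibitors and ERK targets, with the largest called changes taken among genes with a group mean of at least 100. In X-GFP–negative, medium and high cells, 31.1%, 33.3% and 18.1% of all genes tested rose with IFNγ and 30.8%, 29.6% and 20.4% fell, against which the counts of each list are to be read. At day 2, where 5.03% of all genes rose and 3.45% fell, 3 of 12 further ERK targets rose and 2 of 25 ligands and receptors fell. At day 5, where 1.65% rose and 0.535% fell, 2 of 24 ligands and receptors rose and 1 fell. In the other lists at most 1 gene was called in either direction at these days. Of 25 ligands and receptors tested in X-GFP–negative cells, 9 rose and 12 fell; in medium cells 7 of 24 rose and 11 fell, and in high cells 3 of 23 rose and 8 fell. The shares that rose in negative and medium cells were near those of all genes. The epidermal growth factor receptor, Egfr, fell most in all 3, from 1555 and 1608 to 442 and 473 in negative (log2 fold change -1.79 ± 0.083, adjusted p = 1.04e-06), from 934 and 948 to 186 and 289 in medium (log2 fold change -2.02 ± 0.17, adjusted p = 7.62e-06) and from 454 and 513 to 137 and 169 in high cells (log2 fold change -1.66 ± 0.14, adjusted p = 9.54e-06). The platelet-derived growth factor receptor Pdgfra rose most, from 86.7 and 122 to 488 and 495 in negative cells (log2 fold change 2.24 ± 0.17, adjusted p = 9.4e-06), with log2 fold changes of 2.35 ± 0.14 in medium and 1.07 ± 0.19 in high cells. It had also risen at day 5 (log2 fold change 1.51 ± 0.25, adjusted p = 0.0577), where the ligand of Kit, Kitl, fell (log2 fold change -0.66 ± 0.11, adjusted p = 0.0623). At day 2 the growth factor gene Pdgfb fell (log2 fold change -0.57 ± 0.085, adjusted p = 0.0166).

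Of 15 adaptors and Ras regulators, 1 rose and 6 fell in negative, 3 rose and 4 fell in medium, and 3 rose and 4 fell in high cells, where all genes rose at 31.1%, 33.3% and 18.1% and fell at 30.8%, 29.6% and 20.4%. The falls in medium and the rises in high cells were thus near the share of all genes. The scaffold Gab2 fell most, with log2 fold changes of -0.88 ± 0.13, -1.59 ± 0.13 and -2.22 ± 0.20. The largest increases were those of Hras in negative (0.33 ± 0.099) and of the adaptor Grb2 in medium (0.35 ± 0.082) and high cells (0.28 ± 0.11). Of 16 kinases and nuclear targets, 5 rose and 6 fell, 7 rose and 5 fell, and 2 rose and 2 fell in negative, medium and high cells, counts that were near or below the same shares of all genes except for 7 of 16 higher in medium cells. Mapk3, which encodes ERK1, fell in each, from 1811 and 1890.4 to 1218 and 1269 in negative (log2 fold change -0.57 ± 0.071, adjusted p = 0.000166), from 1395 and 1476 to 802 and 899 in medium (log2 fold change -0.76 ± 0.082, adjusted p = 3.84e-05) and from 829 and 868 to 469.5 and 521 in high cells (log2 fold change -0.78 ± 0.098, adjusted p = 0.000135). The largest increases were Elk3 in negative (0.69 ± 0.095), the scaffold Ksr1 in medium (0.74 ± 0.12) and the MEK2 gene Map2k2 in high cells (0.32 ± 0.082). At day 2, Braf rose (log2 fold change 0.31 ± 0.075, adjusted p = 0.0764) and the ribosomal S6 kinase gene Rps6ka2 fell (log2 fold change -0.40 ± 0.10, adjusted p = 0.0906).

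Further feedback inhibitors and targets were also read against 31.1%, 33.3% and 18.1% of all genes higher and 30.8%, 29.6% and 20.4% lower in negative, medium and high cells. Of 16 further feedback inhibitors, 15 were tested in negative cells, where 3 rose and 7 fell, and 14 in medium and high cells, where 3 rose and 9 fell and 2 rose and 8 fell. Dusp1, which is also among the other immediate early genes, is counted in these falls as well. The largest falls were those of Errfi1, an inhibitor of the epidermal growth factor receptor, in negative cells (4534 and 5362 to 1222 and 1339; log2 fold change -1.95 ± 0.090, adjusted p = 1.04e-06) and of the nuclear ERK phosphatase Dusp5 in medium (2443 and 2811 to 821 and 909.6; log2 fold change -1.60 ± 0.086, adjusted p = 8.21e-07) and high cells (log2 fold change -1.53 ± 0.12, adjusted p = 3.84e-06). Lrig3 rose most in all 3 (2.18 ± 0.18, 0.80 ± 0.13 and 0.53 ± 0.13) and at day 2 (log2 fold change 0.54 ± 0.11, adjusted p = 0.044). Of 12 further ERK targets, 3 rose and 8 fell, 2 rose and 7 fell, and 3 rose and 5 fell in negative, medium and high cells, beside the same shares of all genes. Maff, a small Maf factor, fell most in each (-1.68 ± 0.11, -1.65 ± 0.093 and -1.56 ± 0.097). The ephrin receptor Epha4 rose most in negative (log2 fold change 1.44 ± 0.11, adjusted p = 1.02e-05) and medium cells (log2 fold change 1.31 ± 0.065, adjusted p = 5.9e-07) and at day 2 (log2 fold change 0.63 ± 0.084, adjusted p = 0.0103), while Epha2 fell at day 5 (log2 fold change -0.48 ± 0.089, adjusted p = 0.0737). Etv1, the third gene of the Etv4 and Etv5 group, rose most in high cells, from 239 and 258 to 419 and 517 (log2 fold change 0.90 ± 0.13, adjusted p = 0.000396).

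The genes most like each of the 10 were taken by Pearson r of log2 values over the 24 libraries, which share the line, treatments and sorting and differ mostly by population. For Dusp4 these were Tmem94 (0.97), Mark4 (0.97), Btbd1 (0.96), and for Dusp6 Nrip1 (0.96), Cic (0.96). The nearest genes were Fzd8 (0.94), Arl5b (0.93), Gipr (0.93) for Spry1, Sema7a (0.95), Bora (0.93), Pgap1 (0.93) for Spry2 and Spen (0.93), Tbx20 (0.92), Trrap (0.92) for Spry4. Spred1 was followed most closely by Sdc2 (0.97), St8sia4 (0.97), Socs5 (0.97). For Etv4 they were Hunk (0.93), Slc39a10 (0.92), Aamp (0.90), and for Etv5 Zswim1 (0.99), Rbpms2 (0.99), Pecam1 (0.99). Egr1 was closest to Sh3rf2 (0.98), Egr2 (0.96), Mctp1 (0.96), and Fos to Tinagl1 (0.98), Krt19 (0.98), Zfp36 (0.97), of which Egr2 and Zfp36 are among the 12 other immediate early genes.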

How the data were processed

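RNA was sequenced as stranded, ribosome-depleted libraries from 24 samples in 12 populations, 2 each. Per the labels and methods, the authors aligned reads with STAR to a mouse mm10 genome masked at strain variants, filtered them for allelic mapping bias, counted them per gene with HTSeq 0.6.1 and deposited counts divided by DESeq2 size factors, a signal that is never negative. Every deposited value came out as a whole multiple of the value of 1 read within 0.001, so reads were recovered for 100% of values and used for the count-based alternatives. Libraries held 24746109 to 37056508 reads on genes. The authors' table of allelic fractions was not used. Gene names came from GENCODE vM21 (95.2% of identifiers matched).

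limma 3.58.1 was run in R 4.3.3 on log2(normalized count + 1), with the libraries of each comparison (those of all 4 groups for an interaction), genes with a mean above 10, and Benjamini-Hochberg adjustment over all genes tested; calls had an adjusted p under 0.1. Fold changes on this scale understate those of low genes. An exact permutation test of 2 against 2 libraries cannot go below p = 0.333 and was not used. Alternatives were a pseudocount of 0.1, no filter, rescaling to equal library totals, a joint fit of the 24 libraries, a replicate block, edgeR 4.0.16, DESeq2 1.42.0 and each library left out. A crossed replicate block and the alternatives for the other immediate early genes were chosen after seeing the data. The 10 genes and all lists were chosen with earlier results of these data known. Pathway genes were named where they had the largest called increase or decrease of their list with a group mean of at least 100. Python 3.11.15, numpy 2.4.6, pandas 2.3.3 and matplotlib 3.10.9 were used, and scripts were tested on simulated data. For each of the 10 genes, those with the highest Pearson r over the 24 libraries were named, of which 1 is not reported here.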

Additional observations from a re-analysis of the deposited data

Results flagged for a closer look

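The effect of IFNγ was compared between day 7 populations by an interaction term (limma, adjusted p under 0.1). It differed for 4 of the 10 genes between high and medium, 3 between high and negative and 2 between medium and negative cells. Between X-GFP–high and medium cells the log2 effect differed by 1.03 for Spry4, -0.49 for Spry1, -0.44 for Spry2 and -0.33 for Dusp6 (background 4.71% higher and 8.06% lower). Between high and negative cells it differed by 1.05 for Spry4, -0.52 for Spry1 and -0.36 for Spry2 (background 9.43% higher and 13.3% lower). Between medium and negative cells it differed by -0.32 for Spred1 and 0.25 for Etv5 (background 7.31% higher and 8.36% lower). These contrasts share libraries. Those of Spry4 were called under every alternative tried, whereas each of the others lost its call under some alternative.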

How the results depend on the processing

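Of 1134 values of called genes under an alternative, 1061 kept direction and call, 73 lost the call and 0 changed direction; of 441 values of uncalled genes, 30 became called and 28 changed direction. The cause was not tested for any of these. The replicate numbers of the labels name 2 libraries a group and say nothing of shared origin. The differences between the replicates of the groups compared correlated with r = 0.406 at day 2, 0.363 at day 5 and -0.146 between day 2 control and NPC, and between those in the other comparisons. With the numbers as a block, IFNγ raised 3 and lowered 2 of the 10 genes at day 2, and 4 and 2 at day 5. Of the 12 other immediate early genes, the block called 6 lower at day 2 and 3 at day 5. The block gave 1 gene higher from negative to medium control cells, 2 higher and 2 lower interactions between medium and negative cells, and 2 higher between high and negative cells. The share of all genes called with the block is not given for any of these comparisons. These block counts therefore cannot be read against a background, and no effect on the genes is drawn from them. For the IFNγ comparisons of day 2 and day 5, the number of all genes called varied widely over the alternatives, as listed below. Between day 2 control and NPC, it called 4680 genes higher and 5550 lower, and the crossed numbers 5163 and 6136, against 4977 and 5921 without a block.

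With all 24 libraries in 1 fit, the genes lower with IFNγ were 1, 2 and 1 in negative, medium and high cells, 1 gene was higher in high than medium control cells, and the interactions were 0 higher and 0 lower (medium against negative), 0 lower (high against medium) and 1 lower (high against negative). Without the filter, 1 gene was lower with IFNγ in high cells, 1 was higher in high than medium control cells and 1 interaction was lower between high and negative cells. DESeq2 gave 1 lower at day 5, 1 higher between high and medium control cells, 0 higher interactions between medium and negative cells and 1 lower between high and medium cells. Rescaled to the same total, 1 gene was higher in medium than negative control cells, and the interactions were 0 higher and 2 lower (medium against negative) and 5 lower (high against negative). There, the log2 changes with IFNγ in negative cells turned to 0.064 for Dusp4, 0.095 for Spry4 and 0.049 for Etv5. Also when rescaled, Fos between ESC and NPC turned to -0.092, and from day 5 to negative cells Spred1 turned to -0.060 and Egr1 to -0.014. DESeq2 and edgeR gave -0.023 and -0.023 for this change of Spred1. The median of all genes shifted by -0.16 and -0.17 in the interactions of medium and high with negative cells, with higher calls going from 46.6% to 12.2% and from 41.4% to 13.9%. The share of all genes called under each setting is not given beside the gene counts of this paragraph. No effect on the genes is drawn from these counts.

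Leaving out 1 library at a time, the genes called lower at day 2 ranged from 0 to 1, and those called at day 5 from 0 to 2 higher and 0 to 1 lower. In high cells 1 to 3 were lower, from day 2 to day 5 1 to 2 were lower, and between high and medium control cells 1 to 2 were higher. Interactions ranged from 0 to 1 higher and 0 to 1 lower (medium against negative), 1 to 2 and 0 to 3 (high against medium), and 1 to 2 and 0 to 3 (high against negative). For these fits too, the share of all genes called is not given, and no effect on the genes is drawn from the counts. Of uncalled log2 changes with IFNγ, at day 2 Fos ranged from -0.47 to 0.30, Spry1 from -0.069 to 0.23, Spred1 from -0.13 to 0.014 and Etv5 from -0.013 to 0.27. Etv4 at day 5 ranged from -0.15 to 0.17, Dusp4 in negative cells from -0.24 to 0.056, Spry4 in medium cells from -0.20 to 0.12 and Spred1 in high cells from -0.12 to 0.041. Between populations, Fos (ESC against NPC) ranged from -0.17 to 0.24, Spry4 (day 2 against NPC) from -0.50 to 0.075, Spred1 and Egr1 (negative against day 5) from -0.035 to 0.072 and from -0.11 to 0.24, Spry2 (medium against negative) from -0.025 to 0.046 and Etv4 (ESC against X-GFP–high control) from -0.34 to 0.081.

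Over all alternatives, the genes called with IFNγ at day 2 numbered 463 to 2652 higher (790 as tested) and 173 to 2343 lower (542 as tested), and at day 5 107 to 1810 higher (249 as tested) and 5 to 1569 lower (81 as tested). In high cells they were 967 to 3187 higher (2830 as tested) and 1774 to 3657 lower (3175 as tested), and 1979 to 4415 were higher (3363 as tested) and 2554 to 4674 lower (3871 as tested) in medium than negative control cells. Interaction calls ranged from 8 to 191 higher (32 as tested) and 42 to 270 lower (75 as tested) for day 5 against day 2, from 396 to 2071 (1142 as tested) and 591 to 2863 (1307 as tested) for medium against negative, from 155 to 1166 (736 as tested) and 329 to 1912 (1259 as tested) for high against medium, and from 655 to 2075 (1487 as tested) and 1219 to 4069 (2101 as tested) for high against negative. With 2 libraries a group, a missed threshold does not show that values did not differ.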
